A study of Mus musculus with 8 samples.

Results

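The cytochrome P450 genes, named Cyp in the mouse, were read as a group in kidneys that form nephrons and in kidneys that do not. Members were all genes with a Cyp family number that a probe set reported under a single gene symbol, with Cyp27b1, Cyp24a1 and Cyp51 left out. This rule gave 70 P450 genes, read by 92 probe sets, of 18194 named genes and 45101 probe sets in all. Each gene was taken from its brightest probe set, the one with the highest mean over the 8 arrays, and 17 of the 70 genes had more than 1 probe set.

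Whole embryonic kidneys were pooled by genotype and stage, and 4 pools of RNA were hybridized to Affymetrix mouse genome arrays. They came from 9 E18.5 Lim1 conditional mutant embryos, 14 E18.5 control embryos, 17 E14.5 mutant embryos and 23 E14.5 control embryos. Mutants were Lim1flox/lacZ; Rarb2-Cretg/+, and controls were Lim1flox/+; Rarb2Cretg/+, so controls also carried Cre and a floxed allele. By the sample labels, all pools had a 129 / C57BL/6 / SJL/J mixed strain background and held embryos of mixed gender. Lim1 (Lhx1) is a transcription factor gene without which nephrons stop at the vesicle stage. The Rarb2-Cre transgene acts in the metanephric mesenchyme, the source of the nephrons, and not in the ureteric bud. The 2 arrays of a pool were 2 target preparations of 1 RNA, so the spread between them is technical and each condition rests on 1 biological replicate. For this reason 2 pools are compared without a p-value.

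Cytochrome P450 enzymes are heme proteins that insert an oxygen atom into steroids, fatty acids, vitamins and drugs. Those of the endoplasmic reticulum take electrons from P450 oxidoreductase and cytochrome b5, and those of mitochondria from ferredoxin. Families with low numbers mostly handle foreign compounds and fatty acids, whereas many families with higher numbers have a fixed place in sterol, bile acid, steroid hormone or retinoid metabolism. In the adult kidney they are known chiefly from the proximal tubule, where some make vasoactive products of arachidonic acid.

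Fewer P450 genes than other genes reached a minimum signal. The 40th percentile of an array, used as the minimum signal, lay between 177 and 194 units of linear signal intensity. Of the 70 P450 genes, 43 (61.4%) reached it on both arrays of at least 1 pool and 27 (38.6%) did so in all 4 pools, against 76.5% and 66.9% of all named genes. The other 27 stayed below it in every pool. Taking the brightest probe set favours genes with more probe sets, and these shares were not adjusted for that. The 70 P450 genes had 92 probe sets, against 34958 for the 18194 named genes. The median fold between the duplicate arrays of a pool, over the P450 genes, was 1.19 for the E18.5 mutant, 1.09 for the E18.5 control, 1.08 for the E14.5 mutant and 1.12 for the E14.5 control. The duplicates of the E18.5 mutant pool were thus the furthest apart. The 2 Lhx1 probe sets did not differ 2-fold between genotypes at either stage. Where they lie relative to the deleted part was not given, so they do not check the labels.

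Of the 70 P450 genes, 2 were lower and 0 were higher in E18.5 mutant kidneys than in E18.5 control kidneys by criteria of size. These asked for a ratio of mean signals of at least 2 that exceeded the fold between the duplicates of either pool, a mean signal times ratio above 100, and the minimum signal on both arrays of the higher pool. The same criteria took 1.75% of all named genes as lower and 0.0989% as higher, against 2.86% and 0.0% of the P450 genes. The 2 genes were Cyp2j5, an arachidonic acid epoxygenase known from the proximal tubule, and Cyp2d26, a member of the Cyp2d subfamily of amine- and drug-oxidizing enzymes. For both, the 250 bases before the start of transcription are shown because they were the P450 genes whose signal was present in E18.5 control kidneys and near background in the other pools. The sequences are from RefSeq on GRCm38.p6, written 5′ to 3′ on the strand of the gene, and capitals mark the motifs named below. Cyp2j5 lies on the minus strand (chr4:96664120-96664369) and Cyp2d26 on the minus strand (chr15:82794246-82794495).
Cyp2j5: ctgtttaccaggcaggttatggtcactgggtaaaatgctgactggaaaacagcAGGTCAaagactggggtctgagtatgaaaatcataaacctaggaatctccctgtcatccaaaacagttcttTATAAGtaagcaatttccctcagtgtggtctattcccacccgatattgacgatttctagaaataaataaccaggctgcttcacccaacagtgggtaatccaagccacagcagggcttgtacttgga
Cyp2d26: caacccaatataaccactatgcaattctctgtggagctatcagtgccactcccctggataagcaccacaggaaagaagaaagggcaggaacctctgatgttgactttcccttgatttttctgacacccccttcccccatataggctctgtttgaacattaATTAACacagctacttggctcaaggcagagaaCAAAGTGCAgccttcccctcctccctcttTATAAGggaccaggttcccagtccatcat
The motifs searched were GTTAAT (a core of HNF1 sites), AGGTCA (the core of nuclear receptor sites) and CAAAGNNCA (a form of HNF4 site), each on both strands, and, on the strand of the gene alone, TATAAA (the TATA box) with its variant TATAAG. Counting back from the start, the Cyp2j5 window held AGGTCA from base -197 and TATAAG from base -126. The Cyp2d26 window held GTTAAT on the opposite strand (printed as ATTAAC) from base -90, CAAAGTGCA from base -58 and TATAAG from base -29. A match describes letters in this window only.

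The signal of Cyp2j5 was 51.6 and 41.8 on the arrays of the E18.5 mutant pool, against 1653 and 1714 in the E18.5 control pool. On the E14.5 arrays it was 40.1 and 35.7 in mutants, against 39.5 and 48.6 in controls. Only the E18.5 control pool stood above the minimum signal, and its arrays lay far outside the range of the other 6. The log2 ratio of mutant over control at E18.5 was -5.17 (range over the 4 pairings of single arrays -5.36 to -5.00), a 36.0-fold lower signal. Because the mutant signal was below the minimum, the size of this ratio depends on the background in it, and with 50 units added to every signal it was -4.16. A second Cyp2j5 probe set also passed, with signals of 54.9 and 52.0 in E18.5 mutant, 199 and 227 in E18.5 control, 57.0 and 53.4 in E14.5 mutant and 62.7 and 58.0 in E14.5 control kidneys. In whole-kidney RNA, fewer cells of a type and less RNA per cell cannot be told apart, and this holds for every difference given here.

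Cyp2d26 gave 93.1 and 79.3 units in E18.5 mutant kidneys, against 927 and 951 in E18.5 control kidneys. At E14.5 it gave 78.2 and 88.1 units in mutants, against 105 and 85.3 in controls. As for Cyp2j5, 1 pool was high and 3 were low without overlap between them. The log2 ratio of mutant over control at E18.5 was -3.44 (-3.58 to -3.31), a 10.9-fold lower signal, and -2.86 with 50 units added.

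**Figure D1:**
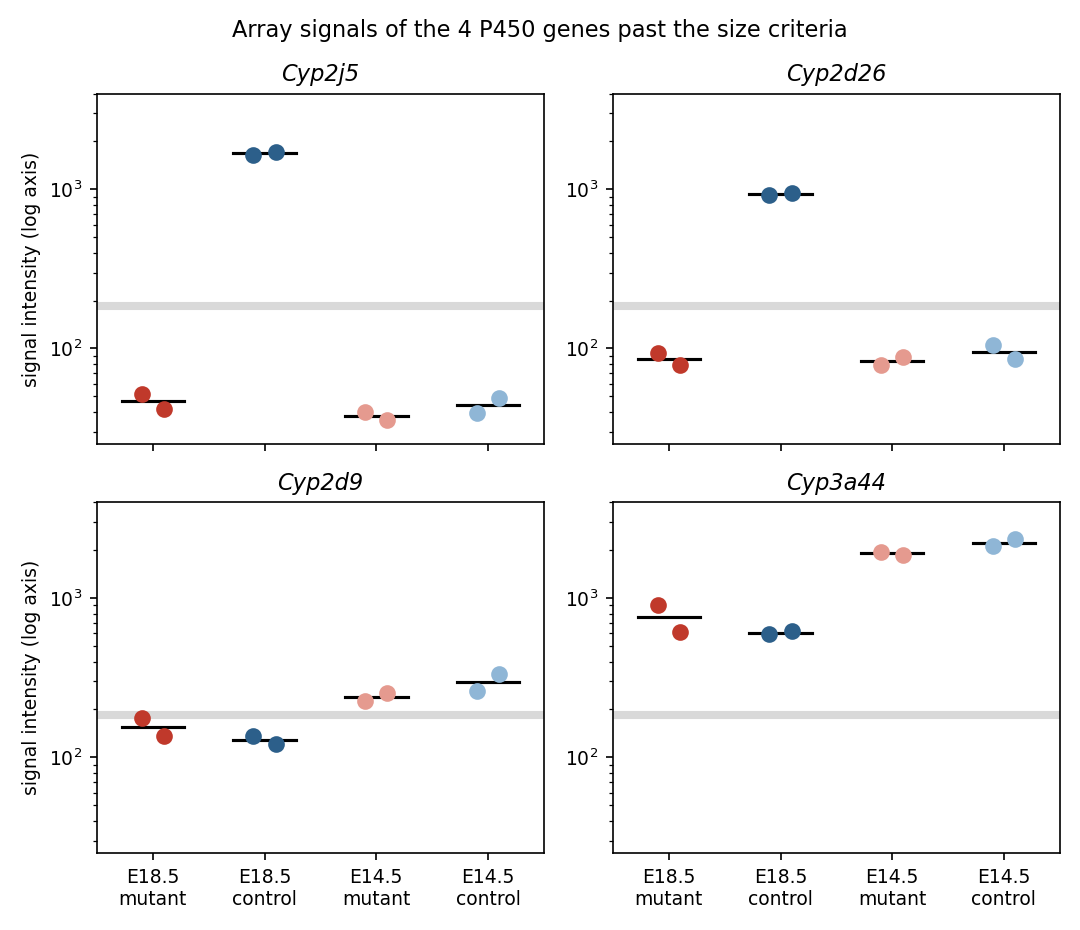
Signal intensity (log axis) of Cyp2j5, Cyp2d26, Cyp2d9 and Cyp3a44 on each of the 8 arrays, with points for arrays, bars for the mean of the 2 arrays of a pool and a grey band for the 40th percentiles of the arrays. Cyp2j5 and Cyp2d26 stood above the band only in the E18.5 control pool (1653 and 1714, 927 and 951), and Cyp2d9 and Cyp3a44 were lower in both E18.5 pools than in both E14.5 pools.

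Markers of nephron segments moved with these 2 genes. Of 12 measured markers of the proximal tubule, 9 were lower in the E18.5 mutant pool, with a median log2 ratio of -3.74. Their summed signal was 1803 to 2052 in E18.5 mutant kidneys, against 24466 to 24826 in E18.5 controls, and at E14.5 it was 1847 to 1887 in mutants, against 2360 to 2395 in controls. Slc34a1, the phosphate cotransporter of the brush border, had signals of 85.2 and 73.8 in E18.5 mutants, against 5061 and 5027 in E18.5 controls, whereas Slc5a2, a glucose cotransporter of the same segment, gave 583 and 457 against 542 and 549. No marker of the list was at 0 on any array. By the same criteria 3 of 5 markers of the loop and distal tubule, 1 of 4 of the podocyte and 1 of 6 of the collecting duct were lower, and 0 of 6 of the nephron progenitor were. The part of tubule cell number in the P450 values was not tested.

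The other 68 P450 genes did not pass in this comparison. The median log2 ratio over all 70 was 0.08 (-0.08 to 0.19), beside 0.03 over all named genes. Within 0.5 of 0 on the log2 scale lay 66 of the 70, beside 16885 of the 18194 named genes. Outside this range, besides Cyp2j5 and Cyp2d26, were Cyp2j11, a gene of the Cyp2j cluster at -0.60 (-0.77 to -0.45), and Cyp7b1, an oxysterol hydroxylase at 0.51 (-0.06 to 1.09). Cyp2j11 was chosen after its values were seen. Both arrays of 1 genotype lay above both of the other for 16 P450 genes in the higher direction (22.9%, against 22.8% of all named genes) and for 11 in the lower direction (15.7%, against 21.1%). These shares were near or below those of all genes.

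**Figure D2:**
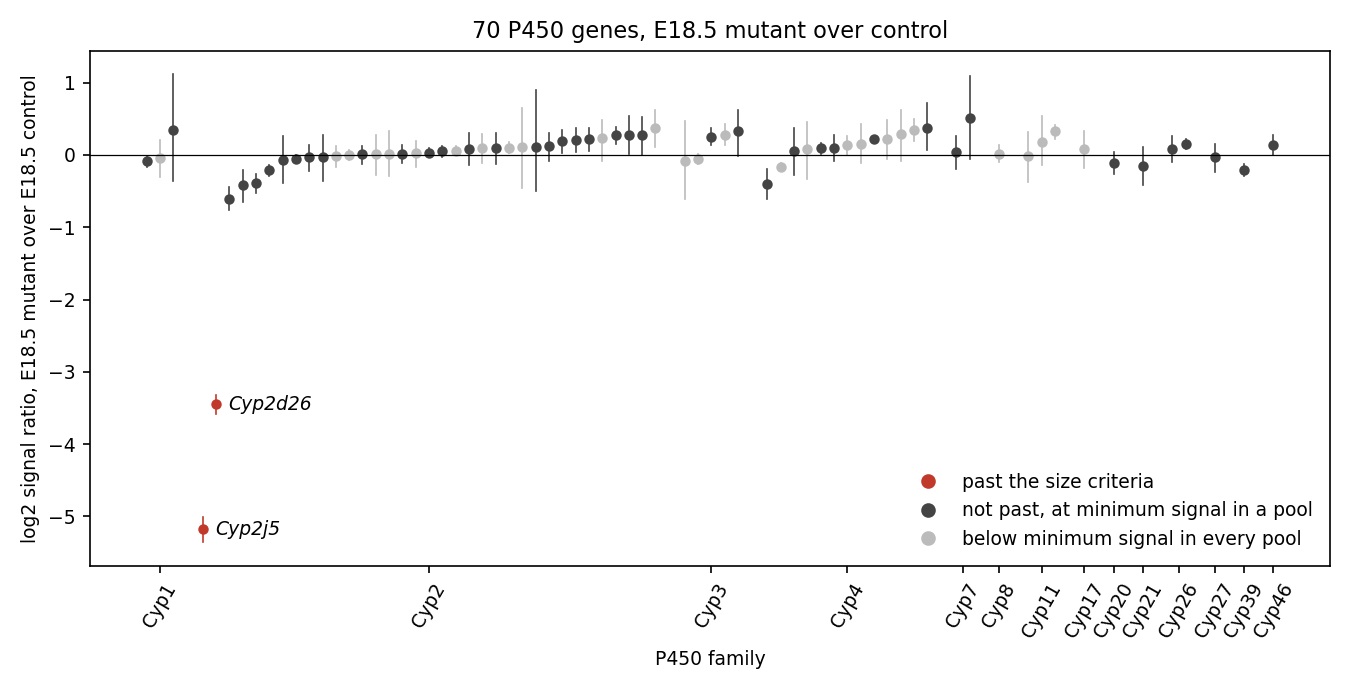
Log2 signal ratio of E18.5 mutant over E18.5 control for the 70 P450 genes, grouped along the horizontal axis by family, with points for ratios of mean signals and lines for the range over the 4 pairings of single arrays. Cyp2j5 (-5.17) and Cyp2d26 (-3.44) lay apart, and 66 genes lay within 0.5 of 0, as did 16885 of the 18194 named genes, which are not plotted.

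At E14.5 no P450 gene met the criteria in either direction, where 0.0% of all named genes were higher and 0.0715% were lower in mutants. All 70 log2 ratios of mutant over control lay between -0.31 and 0.38, with a median of -0.04 (-0.09 to 0.02), beside 0.01 for all genes. Arrays lay apart for 9 P450 genes in the higher direction (12.9%, against 21.8% of all genes) and 16 in the lower (22.9%, against 15.8%). Cyp2j5 had a log2 ratio of -0.22 (-0.45 to 0.02) and Cyp2d26 of -0.19 (-0.42 to 0.05), and for both the arrays of the 2 genotypes overlapped. The log2 ratio at E18.5 minus that at E14.5 was -4.95 for Cyp2j5 and -3.25 (-3.63 to -2.89) for Cyp2d26. These were the 2 of 70 P450 genes at or below -1 (2.86%, against 1.93% of all genes), and none reached 1. With 1 pool per condition this difference could not be tested.

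Between stages, 2 P450 genes were higher and 2 were lower in E18.5 than in E14.5 control kidneys, each 2.86% of the 70, against 3.57% and 1.21% of all named genes. In mutants 0 were higher and 1 (1.43%) was lower, against 0.896% and 0.742% of all genes. The genes higher with stage in controls were again Cyp2j5, at a log2 stage ratio, that is E18.5 over E14.5, of 5.26 (5.09 to 5.44), and Cyp2d26, at 3.30 (3.14 to 3.48). In mutants the log2 stage ratios were 0.30 (0.06 to 0.53) and 0.05 (-0.15 to 0.25). The genotype and stage comparisons share the E18.5 control pool, so these values are not independent of those above.

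The genes lower with stage were Cyp2d9, a testosterone hydroxylase known from male mouse liver, and Cyp3a44, a member of the steroid- and drug-oxidizing Cyp3a subfamily known from female mouse liver. Their 250 bases are shown as those of the P450 genes with the opposite order of stages. Cyp2d9 lies on the plus strand (chr15:82452127-82452376) and Cyp3a44 on the minus strand (chr5:145805875-145806124) of GRCm38.p6.
Cyp2d9: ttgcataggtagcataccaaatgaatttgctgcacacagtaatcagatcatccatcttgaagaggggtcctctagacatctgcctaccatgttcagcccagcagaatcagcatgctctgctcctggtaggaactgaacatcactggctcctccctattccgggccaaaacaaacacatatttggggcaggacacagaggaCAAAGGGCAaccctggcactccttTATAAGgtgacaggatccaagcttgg
Cyp3a44: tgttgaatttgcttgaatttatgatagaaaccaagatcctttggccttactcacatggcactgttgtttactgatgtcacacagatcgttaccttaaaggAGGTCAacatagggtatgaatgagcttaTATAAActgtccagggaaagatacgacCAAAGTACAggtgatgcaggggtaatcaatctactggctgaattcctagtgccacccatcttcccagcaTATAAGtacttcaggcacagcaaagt
The Cyp2d9 window held CAAAGGGCA from base -50 and TATAAG from base -26. The Cyp3a44 window held AGGTCA from base -150, TATAAA from base -122, CAAAGTACA from base -95 and TATAAG from base -26. Over 57 promoters of 50 P450 genes found in the RefSeq table, against 32851 promoters of all genes, CAAAGNNCA was in 31.6% against 5.49%, AGGTCA in 22.8% against 14.0%, and GTTAAT in 5.26% against 6.43%. TATAAA was in 22.8% against 7.59% and TATAAG in 19.3% against 4.01%. Promoters of neighbouring P450 genes are related in sequence and are not independent of each other. Cyp2d26, Cyp2d9 and Cyp3a44 held CAAAGNNCA in this window, and Cyp2j5 did not.

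Cyp3a44 gave 912 and 616 units in E18.5 mutant and 594 and 623 in E18.5 control kidneys, against 1953 and 1865 in E14.5 mutant and 2117 and 2343 in E14.5 control kidneys. Every E18.5 array was below every E14.5 array, and at E18.5 the genotypes overlapped. The log2 stage ratio was -1.32 (-1.67 to -1.03) in mutants and -1.87 (-1.98 to -1.76) in controls, and both passed the criteria. Cyp2d9 gave 176 and 135 units in E18.5 mutant and 135 and 122 in E18.5 control kidneys, against 225 and 255 in E14.5 mutant and 261 and 333 in E14.5 control kidneys. Its E18.5 arrays also lay below its E14.5 arrays, at a log2 stage ratio of -0.63 (-0.92 to -0.35) in mutants, which did not pass, and -1.21 (-1.45 to -0.95) in controls, which did.

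Blood and liver markers were read beside these 2 genes. The summed signal of 4 erythroid markers was 840 to 875 in E18.5 mutant and 827 to 834 in E18.5 control kidneys, against 7600 to 8095 in E14.5 mutant and 7333 to 7804 in E14.5 control kidneys, most of it from the embryonic globin gene Hbb-y. That of 8 liver markers was 2282 to 2476 in E18.5 mutant and 4726 to 4977 in E18.5 control kidneys, against 1505 to 1544 in E14.5 mutant and 1461 to 1605 in E14.5 control kidneys. The higher erythroid sum at E14.5 came from Hbb-y, and the adult globin gene Hba-a1 gave 241 and 200.5 units in E18.5 mutant and 275 and 227 in E18.5 control kidneys, against 202.5 and 226 in E14.5 mutant and 206 and 209.5 in E14.5 control kidneys. These Hba-a1 signals lay little above the minimum signal of 177 to 194 units, and how well they read blood content was not tested. The liver sum of E18.5 controls was mostly Afp and Ttr, which were lower in E18.5 mutants at log2 ratios of -2.29 and -2.83. Alb, the albumin gene, was higher in E18.5 mutants at 1.02. None of these markers was at 0 on any array, and their part in the P450 values was not tested.

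An effect of genotype common to both stages, and of stage common to both genotypes, was fitted with limma on the 4 pool means of log2(signal + 1) for 27469 probe sets, 41 of them the brightest probe sets of P450 genes. With 1 residual degree of freedom the genotype term gave 0 P450 genes (2 at an unadjusted p under 0.05) and 0 probe sets in all. Cyp2j5 stood at -2.68 (SE 1.12) with an adjusted p of 1 in limma. This fit assumes 1 genotype effect for both stages, which the values of Cyp2j5 and Cyp2d26 above do not have. Of the 41 P450 probe sets, the stage term gave 0 as higher and 2 as lower, against 3.45% and 5.22% of all probe sets. They were Cyp3a44, at -1.61 (SE 0.16) with an adjusted p of 0.0177, and Cyp2d9, at -0.91 (SE 0.17) with an adjusted p of 0.0416, both from limma. The residual of this fit is the difference between the stage ratios of the 2 genotypes. Its SE and p thus do not measure spread among embryos. Without array 1 of the E14.5 control pool, array 2 of the E14.5 mutant pool or array 2 of the E18.5 control pool, the call of Cyp3a44 was left and that of Cyp2d9 was lost.

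**Figure D3:**
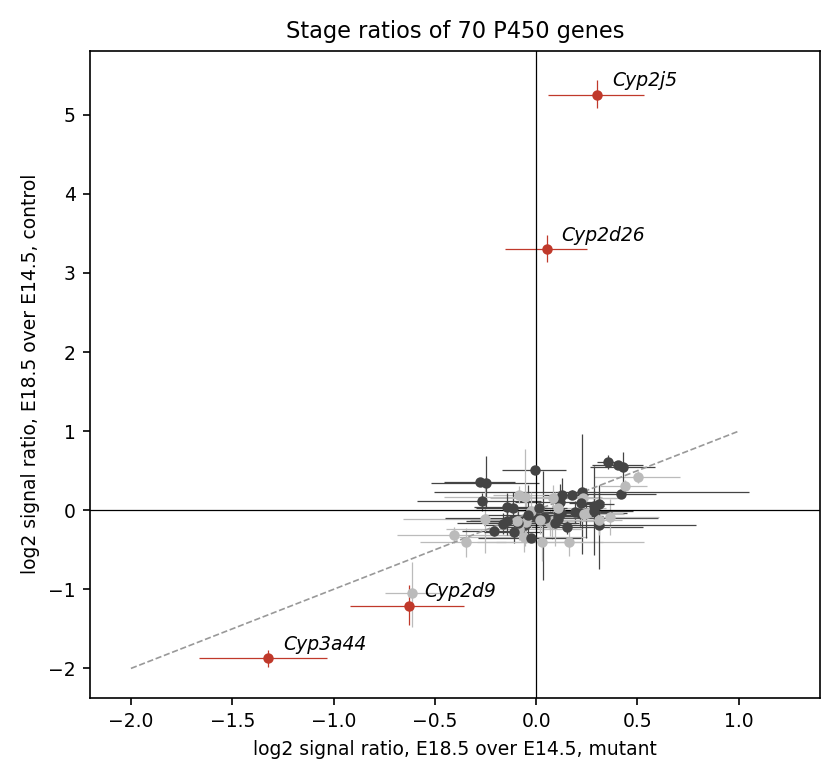
Log2 stage ratio of signal in mutant kidneys (horizontal) and in control kidneys (vertical) for the 70 P450 genes, with ranges over single-array pairings and a dashed line of equal ratios. Red points met the size criteria in either genotype, and light grey points stayed below the minimum signal in every pool. Cyp2j5 and Cyp2d26 lay at 5.26 and 3.30 in controls and near 0 in mutants, and Cyp3a44 was low in both.

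Over all P450 genes the medians between stages stayed near 0. The median log2 stage ratio was 0.06 (-0.03 to 0.14) in mutants, beside 0.02 for all genes, and -0.04 (-0.12 to 0.02) in controls, beside -0.01. In mutants 66 of 70 ratios lay within 0.5 of 0, beside 16160 of the 18194 named genes, and in controls 61, beside 15030. Arrays lay apart in mutants for 22 P450 genes in the higher direction (31.4%, against 27.8% of all genes) and 9 in the lower (12.9%, against 24.1%). In controls they lay apart for 14 in the higher direction (20.0%, against 31.9%) and 21 in the lower (30.0%, against 30.4%). Among the genes past 0.5 in controls, chosen after their values were seen, were Cyp2s1, a P450 of epithelia outside the liver, and Cyp11a1, which starts steroid synthesis by cleaving the side chain of cholesterol. Cyp2s1 had a log2 stage ratio of 0.35 (0.30 to 0.41) in mutants and 0.61 (0.53 to 0.70) in controls. Cyp11a1 had -0.61 (-0.75 to -0.47) in mutants and -1.05 (-1.48 to -0.65) in controls, from signals that did not reach the minimum in any pool. Its other 2 probe sets, also below the minimum, had log2 stage ratios in controls of -0.13 (-0.43 to 0.21) and 0.24 (0.07 to 0.41), so its probe sets disagreed.

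The 4 genes of the criteria belong to runs of neighbouring P450 genes, with up to 9 other coding genes between 2 members, and their neighbours were read beside them. On chromosome 4, Cyp2j13, Cyp2j11, Cyp2j6 and Cyp2j9 precede Cyp2j5. Cyp2j9, next to Cyp2j5, had 221 and 205 units in E18.5 mutants, against 184 and 169 in E18.5 controls, a log2 ratio of 0.27 (0.15 to 0.39), which is opposite in sign to that of Cyp2j5. Cyp2j6 had 711 and 864 units in E18.5 mutants, against 463 and 1001 in E18.5 controls, and its control duplicates differed 2.16-fold, the largest gap of any P450 gene in that pool. Cyp2j11 had 223.5 and 189.5 units in E18.5 mutants, against 322 and 304 in E18.5 controls, and 260 and 240.1 units in E14.5 mutants, against 243.5 and 245 in E14.5 controls. Its E18.5 control arrays were thus above the other 6, as for Cyp2j5, at a log2 ratio of mutant over control of -0.60 at E18.5 and a log2 stage ratio in controls of 0.36 (0.31 to 0.41). Over these 5 genes the median log2 ratio was -0.03, with 1 gene past the criteria.

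On chromosome 15 the run was Cyp2d22, Cyp2d10, Cyp2d9, Cyp2d12, Cyp2d34, Cyp2d40 and Cyp2d26. Cyp2d26 was the member with 927 and 951 units in E18.5 controls, and Cyp2d9 the member lower with stage. Cyp2d10, chosen after its values were seen, had 169 and 136 units in E18.5 mutants, against 195 and 213 in E18.5 controls, a log2 ratio of -0.42 (-0.65 to -0.21). The remaining 4 had log2 ratios of mutant over control at E18.5 between 0.01 and 0.23. On chromosome 5, Cyp3a16, Cyp3a11 and Cyp3a25 flank Cyp3a44, stayed below the minimum signal in every pool, and had log2 stage ratios in controls between -0.05 and 0.17. Related neighbours can share probe sequence, and how far a probe set reads more than 1 of them was not tested.

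**Figure D4:**
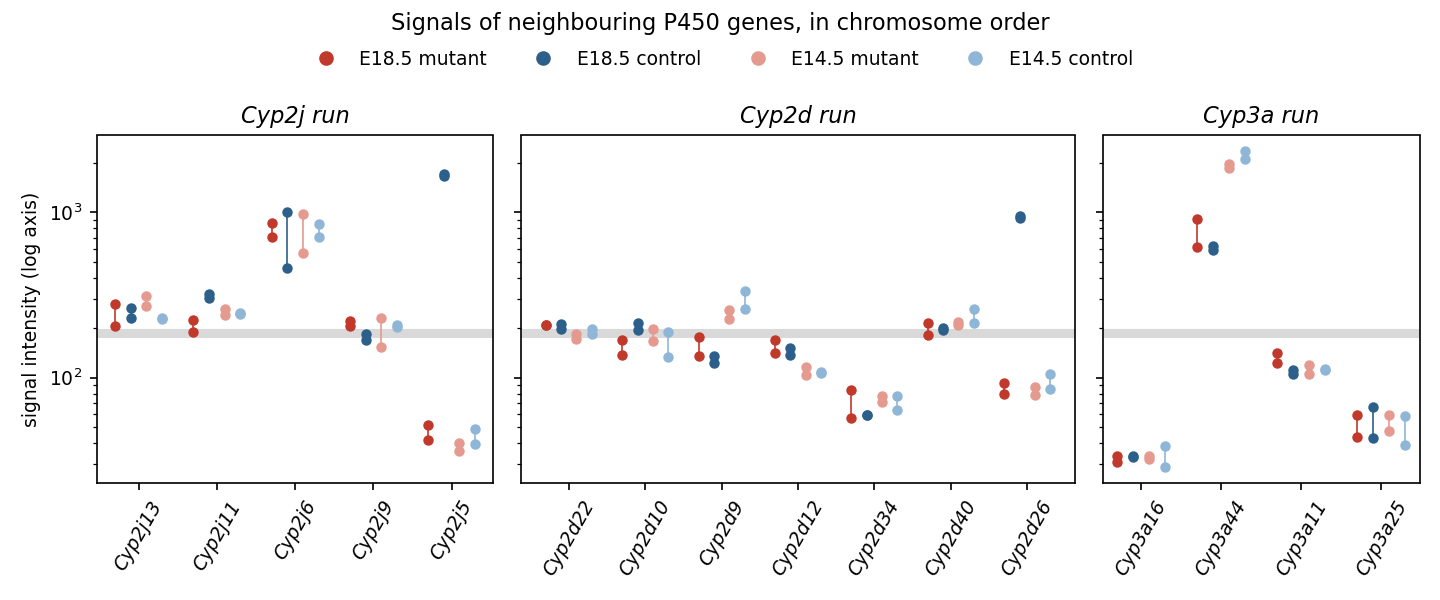
Signal intensity (log axis) of the P450 genes of 3 runs in chromosome order, with 2 joined points per pool for its 2 arrays and a grey band for the 40th percentiles of the arrays. The E18.5 control pool stood far above the others at Cyp2j5 and Cyp2d26 and by less at Cyp2j11, and both E14.5 pools stood above both E18.5 pools at Cyp3a44 and Cyp2d9.

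The Cyp1, Cyp2 and Cyp3 families, which oxidize foreign compounds, steroids and fatty acids, made up 43 of the 70 genes. In the Cyp1 family, 2 of 3 genes reached the minimum signal. Cyp1b1, which oxidizes estrogens and retinoids, had 415 and 459 units in E18.5 mutant and 466 and 464 in E18.5 control kidneys, against 318 and 343 in E14.5 mutant and 312 and 316 in E14.5 control kidneys. Its E18.5 arrays lay above its E14.5 arrays, with log2 stage ratios of 0.40 (0.28 to 0.53) in mutants and 0.57 (0.56 to 0.58) in controls. Its other 2 probe sets had log2 stage ratios in controls of -0.045 (-0.256 to 0.195) and 0.169 (-0.017 to 0.345), with overlap. In mutants they had 0.513 (0.319 to 0.711) and -0.023 (-0.223 to 0.157), so the probe sets of Cyp1b1 disagreed. Cyp1a1, the classic target of the aryl hydrocarbon receptor, had 312 and 476 units in E18.5 mutants, against 219 and 400 in E18.5 controls, and its duplicates differed more than its genotypes.

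Of 35 Cyp2 genes, 24 reached the minimum signal, and the median log2 ratio of mutant over control at E18.5 was 0.03 (-0.11 to 0.20). The 11 Cyp2c genes, which include epoxygenases of arachidonic acid, had a median of 0.12 (0.01 to 0.26), and 7 of them reached the minimum signal. Above 0 were 10 of the 11, beside 47 of the 70 P450 genes and 10229 of the 18194 named genes. At E14.5 the Cyp2c median was -0.05 (-0.10 to 0.00), with 9 of the 11 below 0. So were 46 of the 70 P450 genes and 8595 of the 18194 named genes. Cyp2c38, one of the epoxygenases, had 1388 and 1132 units in E18.5 mutant and 1087 and 1115 in E18.5 control kidneys, against 921 and 966 in E14.5 mutant and 946 and 964 in E14.5 control kidneys. The log2 ratio of mutant over control was 0.19 (0.02 to 0.35) at E18.5, with -0.02 (-0.07 to 0.03) at E14.5, and the gap between its E18.5 mutant duplicates was larger than that between genotypes. Cyp2e1, the ethanol-oxidizing P450, was chosen after its values were seen. It had 211 and 178 units in E18.5 mutants, against 252 and 256 in E18.5 controls, a log2 ratio of -0.39 (-0.53 to -0.26), and did not pass the criteria.

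In the Cyp3 family, Cyp3a13 was the other gene besides Cyp3a44 that reached the minimum signal. It had 243 and 245 units in E18.5 mutants, against 189 and 220 in E18.5 controls, without overlap, at a log2 ratio of 0.25 (0.14 to 0.37). The family's 5 genes had a median of 0.25 (0.02 to 0.43) at E18.5 and of 0.00 (-0.12 to 0.16) at E14.5.

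The 13 Cyp4 genes, which hydroxylate fatty acids and eicosanoids at the end of the chain, had a median log2 ratio of 0.13 (-0.08 to 0.27) at E18.5, and 6 of them reached the minimum signal. Cyp4a31 had 384 and 322 units in E18.5 mutant and 441 and 490 in E18.5 control kidneys, against 268 and 256 in E14.5 mutant and 347 and 293 in E14.5 control kidneys. The mutant arrays lay below the control arrays at both stages, with log2 ratios of -0.40 (-0.60 to -0.20) and -0.29 (-0.44 to -0.13). A second, dimmer Cyp4a31 probe set gave 27.0 and 21.7 units in E18.5 mutants, against 177 and 200 in E18.5 controls, and at E14.5 33.6 and 26.9 in mutants, against 35.8 and 34.3 in controls. Its log2 ratio of -2.95 (-3.20 to -2.71) had the pattern of Cyp2j5, but array 1 of the E18.5 control pool was under its 40th percentile of 181. The 2 probe sets of this gene thus differed in the size of the genotype ratio. A Cyp4a probe set with several gene symbols, left out of the 70 genes for that reason, met the criteria, with 78.2 and 66.3 units in E18.5 mutants, against 229 and 225 in E18.5 controls, a log2 ratio of -1.65 (-1.79 to -1.53). It was also higher with stage in controls, at a log2 stage ratio of 1.28, and so was like the dimmer probe set in direction. Cyp4f16, of the leukotriene-hydroxylating Cyp4f subfamily, had 307 and 306 units in E18.5 mutants, against 269 and 257 in E18.5 controls, a log2 ratio of 0.22 (0.18 to 0.26). A second Cyp4f16 probe set, below the minimum signal, had 0.01 (-0.07 to 0.08).

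Sterol and bile acid P450 genes did not pass in any comparison. Cyp7b1 had 491 and 702 units in E18.5 mutants, against 329 and 510 in E18.5 controls, with overlap. A second Cyp7b1 probe set gave 354 and 515 against 258 and 300, without overlap, at a log2 ratio of 0.64 (0.24 to 1.00). At E14.5 it gave 312 and 318.5 units in mutants, against 199 and 243 in controls, also without overlap, at 0.51 (0.36 to 0.68). The brightest Cyp7b1 probe set had 0.01 (-0.43 to 0.45) at E14.5, with overlap. The dimmest, below the minimum signal in every pool, had 0.22 (-0.04 to 0.49) at E18.5 and -0.355 (-0.65 to -0.07) at E14.5. The probe sets of Cyp7b1 thus disagreed at E14.5. Cyp7a1, the rate-limiting enzyme of bile acid synthesis, had 481 and 383 units in E18.5 mutants, against 436 and 400 in E18.5 controls. Cyp27a1, a mitochondrial sterol hydroxylase, had 472 and 399 against 424 and 468. For both genes the arrays of the genotypes overlapped. Each had a second probe set that stayed below the minimum signal in every pool. In E18.5 mutants it gave 68.0 and 55.2 units for Cyp7a1 and 6.8 and 13.4 for Cyp27a1. Cyp39a1, an oxysterol hydroxylase, had 175 and 195 units in E18.5 mutants, against 213 and 211 in E18.5 controls, and 164 and 163 units in E14.5 mutants, against 178 and 192 in E14.5 controls. Its mutant arrays were lower at both stages, at log2 ratios of -0.20 (-0.29 to -0.12) and -0.18 (-0.23 to -0.12). Cyp46a1, the cholesterol hydroxylase of neurons, had 270 and 249.7 units in E18.5 mutants, against 222 and 249.5 in E18.5 controls. Cyp8b1, of bile acid synthesis, was below the minimum signal in every pool.

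The steroid hormone genes Cyp11a1, Cyp11b1, Cyp11b2 and Cyp17a1 were all below the minimum signal in every pool. Cyp21a1, a steroid hydroxylase of the adrenal cortex, reached it, with 349 and 272 units in E18.5 mutant and 364 and 323 in E18.5 control kidneys, against 340 and 346 in E14.5 mutant and 402 and 351 in E14.5 control kidneys. At E18.5 the genotypes overlapped. A second Cyp21a1 probe set was below the minimum signal in every pool, with 169 and 156 units in E18.5 mutants, against 164.5 and 165 in E18.5 controls. The summed signal of 6 markers of the adrenal cortex was 958 to 1184 in E18.5 mutants, against 922 to 1015 in E18.5 controls, and Star, which delivers cholesterol to steroid synthesis, had a log2 ratio of 0.03 (-0.19 to 0.24). Cyp20a1, a P450 with no settled substrate, had 452 and 546 units in E18.5 mutants, against 545 and 529 in E18.5 controls.

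Cyp26a1 and Cyp26b1 degrade retinoic acid. Cyp26b1 had 613 and 516 units in E18.5 mutants, against 550 and 512 in E18.5 controls, and 552 and 567 units in E14.5 mutants, against 533 and 511 in E14.5 controls. Its log2 ratio of mutant over control was 0.09 (-0.09 to 0.26) at E18.5, with 0.10 (0.05 to 0.15) at E14.5. Cyp26a1 was close to the minimum signal, with 208 and 189.6 units in E18.5 mutants, against 178 and 179.6 in E18.5 controls. Of 12 other retinoid genes, 1 was higher and 0 were lower in E18.5 mutants, against 0.0989% and 1.75% of all named genes. It was Aldh1a3, which makes retinoic acid, with 1946 and 2050 units in E18.5 mutants, against 813 and 785 in E18.5 controls, a log2 ratio of 1.32 (1.26 to 1.38). The list's median log2 ratio was 0.36 at the later stage, with 0.34 at E14.5, beside 0.03 and 0.01 over all genes. Of 8 stroma markers, 1 passed as higher in E18.5 mutants, and their median log2 ratio was 0.36 at the later stage, with 0.34 at E14.5. Their summed signal was 21013 to 22396 in E18.5 mutants, against 17000 to 17102 in E18.5 controls. For 6 nephron progenitor markers the medians were 0.81 and 0.33, and their sum was 4615 to 5277 in E18.5 mutants, against 2815 to 2942 in E18.5 controls. Their part in the retinoid gene values was not tested.

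Genes that serve P450 enzymes were read as lists, where 1.75% of all named genes were lower in E18.5 mutants. A list of electron donors and related proteins held Cyb5a, Cyb5b, Cyb5r3, Fdx1, Pgrmc1 and Pgrmc2. P450 oxidoreductase was not among them. Of these 6 genes, 1 was lower in E18.5 mutants, namely Fdx1, the ferredoxin of mitochondrial P450 enzymes. It had 386 and 477 units in E18.5 mutants, against 1168 and 1131 in E18.5 controls, a log2 ratio of -1.41 (-1.60 to -1.25), while at E14.5 the ratio was 0.16 (0.11 to 0.21). Of 7 genes of heme synthesis, 1 was lower, Cpox, a late enzyme of that pathway. It had 358 and 419.5 units in E18.5 mutants, against 1204 and 1074 in E18.5 controls, a log2 ratio of -1.55 (-1.75 to -1.36). The medians of these lists at E18.5 were -0.41 and -0.25. None of 4 epoxide hydrolases passed in either direction.

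None of 15 receptors and factors that regulate P450 genes passed at E18.5 when read by the brightest probe set, with a median log2 ratio of 0.07. This rule left out dimmer probe sets of Hnf4a, a nuclear receptor of liver and proximal tubule. Its brightest probe set had 562 and 668 units in E18.5 mutants, against 607 and 889.5 in E18.5 controls. Another gave 51.7 and 65.5 units in E18.5 mutants, against 936 and 964 in E18.5 controls, and at E14.5 33.0 and 34.4 in mutants, against 148 and 236 in controls. The log2 ratio of that probe set was -4.02 (-4.22 to -3.84) at E18.5. Another gave 307 and 277 units in E18.5 mutants, against 1450 and 1512 in E18.5 controls, a log2 ratio of -2.34 (-2.45 to -2.24), and it also passed as lower at E14.5, at -1.06. Of the 4 Hnf4a probe sets, 2 thus passed as lower in E18.5 mutants and 2, with the brightest among them, did not.

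Of 14 genes of glucuronidation, sulfation and flavin-dependent oxidation, which act beside or after P450 enzymes, 4 were lower and 0 were higher in E18.5 mutants. Sult1d1, a sulfotransferase, had 146 and 186 units in E18.5 mutants, against 2770 and 2461 in E18.5 controls, a log2 ratio of -3.98 (-4.25 to -3.73), and it was also lower at E14.5, at -2.61 (-2.97 to -2.23). Ugt2b37, a glucuronosyltransferase, had 48.0 and 46.8 units against 470 and 455, a log2 ratio of -3.29 (-3.33 to -3.24). Fmo1, a flavin monooxygenase, had 201 and 205 units against 860 and 935, a log2 ratio of -2.14 (-2.21 to -2.07). Ugt2b34 passed at -1.03 (-1.15 to -0.91). These 4 were lower in the pool in which the proximal tubule markers were lower.

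**Figure D5:**
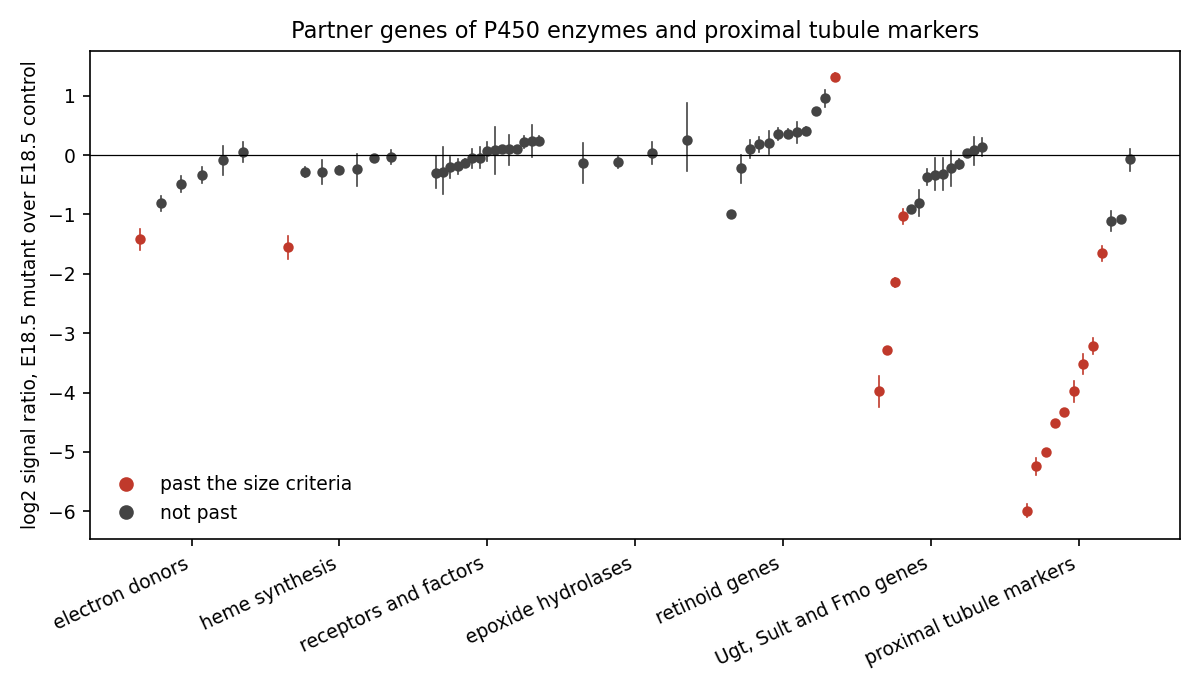
Log2 signal ratio of E18.5 mutant over E18.5 control for partner genes of P450 enzymes by list and for proximal tubule markers, with lines for the range over single-array pairings and red for genes past the size criteria. Of the lists shown, the proximal tubule markers had 9 of 12 genes lower and the Ugt, Sult and Fmo genes 4 of 14, whereas receptors and epoxide hydrolases had none by the brightest probe set of each gene, the only one plotted.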

How the data were processed

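The authors hybridized Mouse Genome 430 2.0 arrays, scaled the scans in Microarray Suite 5.0, and computed model-based expression with invariant-set normalization in dChip. The deposited values are linear signal intensities, 1 per probe set and array. Array medians were 225 to 243, and precision is limited by having 8 arrays. The platform table gave 34958 probe sets 1 gene symbol, 932 several and 9211 none, and 4 probe sets with several symbols, P450 genes among them, were left out. Present calls were replaced by the 40th percentile of the array. Ratios are between arithmetic means of the 2 arrays of a pool. limma 3.58.1 in R 4.3.3 averaged log2 signals by pool, with additive terms for genotype and stage, 3.96 prior degrees of freedom and a Benjamini-Hochberg adjusted p under 0.05 over probe sets whose mean reached the 40th percentile. Other steps used Python 3.11.15, numpy 2.4.6, pandas 2.3.3 and matplotlib 3.10.9, and were tested on simulated data. Named genes are those past the criteria, the 2 brightest detected genes of each family, and partner genes past the criteria between genotypes. Others are said to be chosen after their values were seen. Members and lists were chosen with earlier results of these data known. Alternatives changed the percentile, normalization, averaging, offset, duplicate criterion, probe set rule and limma filter, or left out an array.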

Additional observations from a re-analysis of the deposited data

Results flagged for a closer look

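For 7 P450 genes both arrays of a pool lay above both of the other in 1 comparison and below them in its counterpart, and the differences were not tested. For 4 of them the log2 ratio of mutant over control changed sign between stages. It was -0.09 for Cyp1b1 at E18.5, with 0.08 at E14.5, and -0.39 for Cyp2e1 at E18.5, with 0.13 at E14.5. It was 0.09 for Cyp4f15 at E18.5, with -0.05 at E14.5, and 0.15 for Cyp26a1 at E18.5, with -0.10 at E14.5. A dimmer Cyp1b1 probe set had the opposite signs, 0.264 at E18.5 and -0.294 at E14.5, and another had -0.127 and 0.065. For 3 of the 7 genes the log2 stage ratio, E18.5 over E14.5, changed sign between genotypes. It was -0.28 for Cyp2j11 in mutants, with 0.36 in controls. It was 0.23 for Cyp3a11 in mutants, with -0.05 in controls, at signals below the minimum in every pool. It was 0.11 for Cyp4f16 in mutants, with -0.11 in controls. A dimmer Cyp4f16 probe set had 0.34 in mutants and 0.27 in controls, without this change of sign. None of the 14 values from the brightest probe sets met the size criteria.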

How the results depend on the processing

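Of the group counts and medians, 239 values under the alternatives moved little and 9 moved further, and of the values of named genes 454 moved little and 14 further, none with a change of sign that reversed a call. The log2 ratio of mutant over control at E18.5 ranged from -5.33 to -4.16 for Cyp2j5 and from -3.57 to -2.86 for Cyp2d26 over 13 alternatives each. With 50 units added to each signal, 1 P450 gene was lower in E18.5 than in E14.5 controls and limma gave 1 lower with stage. Cyp2d9 then stood at -0.96 in controls. Leaving out 1 array gave 1 to 2 P450 genes lower and 0 to 2 higher in the limma stage term, the higher ones being Cyp1b1 without array 1 of the E18.5 mutant pool and Cyp2d26 and Cyp2j5 without its array 2. It gave a median of E18.5 over E14.5 in controls of -0.09 to 0.02, the highest without array 1 of the E14.5 control pool. With the array number as a replicate block and the pool as a random block, limma gave 5 P450 genes higher and 2 lower with stage and 0 with genotype. Correlations between pools of array differences ran from -0.453 to 0.42. They were below 0 for each pairing with the E14.5 mutant pool and above 0 for the others. Array number thus did not pair the pools in the same way throughout. A technical difference shared by the duplicates of several pools was not tested, and the blocked fit counts technical arrays. Counting any probe set with no minimum signal, an alternative chosen after seeing the data, gave 3 genes lower in E18.5 mutants, with Cyp4a31 added. Low signals near background limit the size of the ratios.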
